A study of Rattus norvegicus with 20 samples.

Results

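The mir-34 and mir-449 precursors were followed through 15 rat tissues and serum. They were taken by name, as every miRNA precursor named mir-34a, mir-34b or mir-34c or beginning with mir-449. The rule gave 5 of the 444 precursors in the miRBase list (rno-mir-34a, rno-mir-34b, rno-mir-34c, rno-mir-449a and rno-mir-449c, written here without the species prefix) and 8 of the 577 mature miRNAs, which were all of their mature arms in that list. Small RNA was sequenced from untreated male Long Evans Hooded rats at postnatal day 35, in 20 libraries. Each of 14 tissues (fat, heart, kidney, large intestine, liver, lung, pancreas, skeletal muscle, skin, small intestine, spleen, stomach, testes and thymus) was 1 library made from the pooled miRNA of 3 rats. Brain hemispheres and serum were sequenced from single rats, with 3 libraries each. A pool has no replicate of its own, so its intervals are 95% Wilson intervals that cover counting error only, and brain values are the mean ± SD of 3 hemispheres. The tissues were dissected whole, and a smaller number of cells of a type cannot be told apart from less RNA per cell.

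A miRNA is cut from a hairpin precursor into 1 or both of its arms, and the bases called the seed, near the 5′ end of a mature arm, pair with target mRNAs. mir-34 and mir-449 miRNAs are known for sharing a seed, for high levels in meiotic and later male germ cells and in multiciliated epithelia such as those of the airway, brain ventricles and oviduct, and for defects of motile cilia and of sperm when several of their genes are deleted in mice. mir-34a stands apart as widely expressed. It is known as a target of the tumour suppressor p53, which is not meant here to set it apart from mir-34b and mir-34c.

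The mature 5p arms are shown because they carry the feature that makes these miRNAs 1 family. All 5 precursors were found in RefSeq (build GRCr8), and the seed, bases 2 to 8, is in capitals.
miR-34a-5p: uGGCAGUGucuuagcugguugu
miR-34b-5p: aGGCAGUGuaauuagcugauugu
miR-34c-5p: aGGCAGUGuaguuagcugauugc
miR-449a-5p: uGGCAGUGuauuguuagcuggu
miR-449c-5p: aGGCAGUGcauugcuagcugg
The same 7 letters stood at bases 2 to 8 in 5 of the 724 rat mature miRNAs in RefSeq, and these 5 arms were all of them. Outside the seed the arms differed. Counted from 1 at the 5′ end and with miR-34c-5p as the reference, miR-34b-5p differed at 2 of 23 positions (G11A and C23U). With miR-449a-5p as the reference, miR-449c-5p differed at 3 of 21 positions (U1A, U9C and U14C). miR-34a-5p differed from miR-449a-5p at 7 of 22 positions and from miR-34c-5p at 11 of 22. Full-length reads of any 2 of these arms therefore differ in sequence.

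The 3p arms of mir-34b and mir-34c are also shown. Of the 3p arms of the family in the mature list, only these had more than 1 read in any library. They too shared a seed.
miR-34b-3p: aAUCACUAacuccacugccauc
miR-34c-3p: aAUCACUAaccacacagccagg
In GRCr8 the family lies at 3 places. The mir-34b hairpin (chr8:60306609-60306692, minus strand) and the mir-34c hairpin (chr8:60306091-60306167, minus strand) are 441 bases apart. Both lie within the span of the protein-coding gene Hoatz, with Layn and Btg4 as the coding genes on either side. The mir-449c hairpin (chr2:46402375-46402473, plus strand) and the mir-449a hairpin (chr2:46403910-46404000, plus strand) are 1436 bases apart within a long non-coding RNA gene. The coding genes on either side are Mcidas, a regulator of multiciliated cell differentiation, and Gpx8. The mir-34a hairpin (chr5:165815952-165816053, plus strand) lies alone, within another long non-coding RNA gene between H6pd and Gpr157. The deposited counts were made on another build, Rn5, and these positions were not used for any value.

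The testes pool held the highest level of all 5 members, and in RPM the lung pool or the brain came second. Levels are given as RPM, the reads of a precursor scaled to a common total of precursor reads per library. Together the 5 precursors took 24285 of 162080 precursor reads in testes, or 14.98% (14.8 to 15.2%). The corresponding share was 0.318% (0.311 to 0.325%) in lung and 0.204 ± 0.0115% in brain (SD, n = 3). In the other 12 pools the family summed to between 73.0 RPM in stomach and 548 RPM in spleen, with a median of 167 RPM. These 3 tissues were thus well above the rest for the family as a whole, and testes stood far above the other two. Testes was the highest of the 15 tissues for 19 of the 295 precursors that reached 10 counts in 3 or more libraries (6.44%), a set that holds all 5 members. Precursors with reads almost only in testes, such as mir-741 and mir-743b, did not reach that filter and are not in this share.

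**Figure D1:**
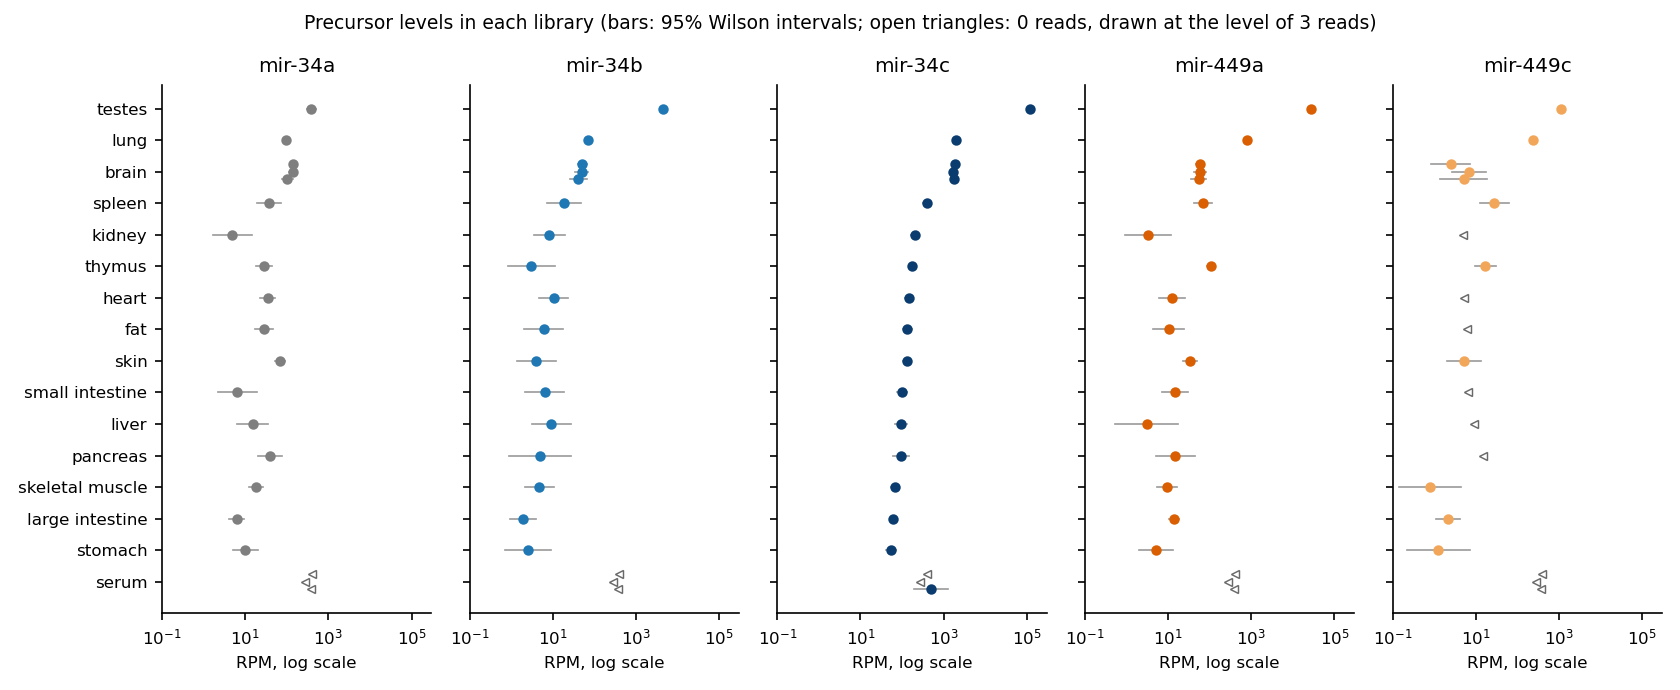
Level of each precursor in RPM (log scale) in every library, with tissues ordered by mir-34c; the 3 points of brain and of serum are single rats, bars are 95% Wilson intervals and open triangles mark 0 reads, drawn at the level that 3 reads would give. The testes point is the highest in each of the 5 panels, and serum shows reads only in the panel of mir-34c.

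rno-mir-34c was the most abundant member in every tissue. In testes rno-mir-34c reached 116708 RPM (115154 to 118280), or 18916 reads, and was the second highest of the 272 precursors detected there. Its level was 1976 RPM (1921 to 2033) in lung. The 3 hemispheres held 1903, 1674 and 1813 RPM, for a mean of 1796 ± 116 RPM. Spleen followed with 394 RPM (318 to 487), and its interval overlapped neither neighbour in the order. Levels then ran from kidney (201 RPM) through thymus (173 RPM), heart (148 RPM), fat (135 RPM), skin (131 RPM), small intestine (98.2 RPM), liver (94.5 RPM), pancreas (94.2 RPM), skeletal muscle (67.5 RPM) and large intestine (59.7 RPM) to stomach (54.1 RPM). From kidney downwards each interval overlapped the next, so the order of these neighbours was not resolved. Testes exceeded lung by 59.1-fold (57.2 to 61.0) and the hemispheres by 61.3- to 69.7-fold. In RPM lung and brain were close, but not under every scaling. The ratio of lung to each hemisphere was 1.04 (0.988 to 1.09), 1.18 (1.10 to 1.27) and 1.09 (1.01 to 1.18). Lung was 1.28-fold above the brain mean with libraries scaled by the trimmed mean of M values (TMM) and 2.96-fold above it with DESeq2 size factors.

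mir-34b, encoded beside mir-34c, had the same order of its top 4 tissues at a far lower level. rno-mir-34b was at 4344 RPM (4035 to 4676) in testes and 70.7 RPM (60.8 to 82.1) in lung. The hemispheres held 51.5, 49.1 and 41.2 RPM (47.2 ± 5.37), and spleen held 18.7 RPM from 4 reads. The other 11 pools lay between 1.90 RPM in large intestine and 10.4 RPM in heart, each from 7 reads or fewer, and every interval overlapped the next. Testes exceeded lung by 61.5-fold (51.9 to 73.1), so the excess of testes over lung was of the same size for mir-34b as for mir-34c. The ratio of lung to each hemisphere was 1.37 (1.02 to 1.87), 1.44 (0.961 to 2.23) and 1.71 (1.03 to 3.07), and 1 of these 3 intervals included equality. With DESeq2 size factors lung was 4.04-fold above the brain mean for mir-34b.

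mir-449a was concentrated in testes and lung, and brain was lower in its order than for mir-34b and mir-34c. For rno-mir-449a testes held 27295 RPM (26513 to 28100), the seventh highest precursor there. Lung held 800 RPM (765 to 837), which was 34.1-fold (32.3 to 36.0) below testes. Next came the pools of 2 lymphoid organs, thymus with 106 RPM (84.1 to 134) and spleen with 70.3 RPM (42.6 to 116), whose intervals overlapped. The hemispheres held 58.9, 59.6 and 54.1 RPM (57.5 ± 3.01), and lung exceeded them by 13.4- to 14.8-fold. Skin held 33.2 RPM (22.5 to 49.0). The remaining 9 pools lay between 3.05 RPM in liver (1 read) and 14.9 RPM in small intestine, with overlapping intervals.

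mir-449c, the neighbour of mir-449a, was also highest in testes and lung, at 1098 RPM (948 to 1272) and 233 RPM (214 to 253). The excess of testes over lung was 4.72-fold (3.96 to 5.59), far smaller than the 34.1-fold of mir-449a. Spleen held 28.1 RPM (6 reads), thymus 16.7 RPM (11 reads) and skin 5.31 RPM (4 reads). The hemispheres held 2.49, 7.01 and 5.15 RPM, from 3, 4 and 2 reads. Large intestine, stomach and skeletal muscle lay between 0.794 and 2.17 RPM. No read was counted in fat, heart, kidney, liver, pancreas or small intestine, where 3 reads would have been 4.91 to 14.9 RPM, so mir-449c was not detectable there at this depth.

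mir-34a was the most even of the 5. For rno-mir-34a testes held 389 RPM (304 to 497), from 63 reads. The hemispheres held 144, 142 and 103 RPM (130 ± 23.0), lung held 96.2 RPM (84.5 to 109) and skin 67.7 RPM (51.5 to 89.1). The ratio of lung to each hemisphere was 0.670 (0.547 to 0.820), 0.677 (0.524 to 0.884) and 0.933 (0.665 to 1.34). In RPM lung was thus below 2 of the 3 hemispheres beyond counting error. With DESeq2 size factors lung was instead 2.01-fold above the brain mean for mir-34a. The ratio of skin to lung was 0.704 (0.510 to 0.958). The other 11 pools ran from 4.91 RPM in kidney (3 reads) to 39.7 RPM in pancreas (8 reads), with thymus, the middle tissue, at 28.8 RPM. Testes exceeded lung by 4.04-fold (3.01 to 5.36). Testes held 42.6% of the RPM of mir-34a summed over the 15 tissues, against 79.0% for mir-449c and 95.6 to 95.9% for mir-34b, mir-34c and mir-449a.

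Against its own median over the 15 tissues, on a log2(RPM + 1) scale that understates the change of low miRNAs, testes was higher by 3.71 for mir-34a, 9.20 for mir-34b, 9.75 for mir-34c, 10.75 for mir-449a and 8.93 for mir-449c. These differences ranked 16, 6, 4, 2 and 8 among the 295 precursors that passed the count filter. That filter left out precursors with reads almost only in testes, such as mir-743b (19737 RPM there) and mir-463 (4158 RPM). The ranks therefore hold within the filtered set alone. The median difference in testes was 9.20 over the 5 members and 0.33 over all 295 precursors. In lung the medians were 3.86 and 0.24. Brain was high for many precursors. Its median difference was 2.13 over the members but 1.72 over all 295, and 58.0% of all precursors lay at least 1 above their median there, against 34.2% in testes and 27.5% in lung. With TMM the median precursor moved down by 0.33 in testes, 0.27 in lung and 0.99 in brain. With DESeq2 size factors it moved down by 0.33, 0.24 and 1.72. Relative to the median precursor of testes, mir-34c was higher by 9.41 in RPM, 9.24 with TMM and 8.99 with size factors. Relative to the median precursor of brain, the difference of mir-34c was 2.01, 1.88 and 1.83, while that of mir-449a was 0.16, -0.42 and -0.15 and that of mir-449c was -0.34, -0.64 and 0. The direction of mir-449a in brain thus depended on the scaling.

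**Figure D2:**
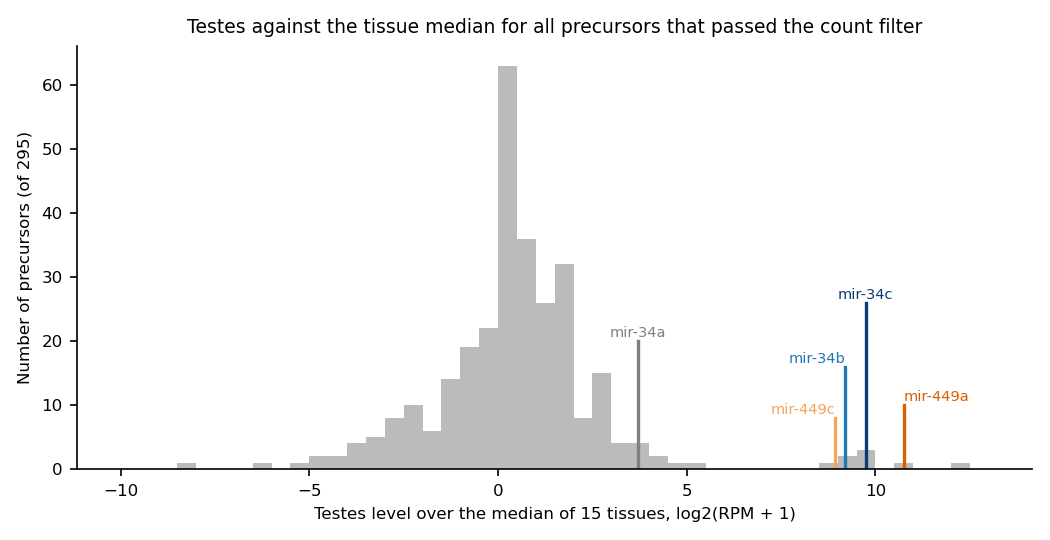
Number of precursors (of 295) by their testes level over the median of the 15 tissues, on the log2(RPM + 1) scale, with a labelled vertical line for each member (line heights are for legibility only). Grey bars centre near 0.33, mir-34a stands at 3.71 and the other 4 members stand between 8.93 and 10.75.

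Testes and lung were the 2 highest tissues for 7 of the 295 precursors (2.37%), and 4 of these 7 were members, namely mir-34b, mir-34c, mir-449a and mir-449c. The other 3, named from these values, were mir-151, mir-672 and mir-3590. Precursors that failed the count filter were not counted here. Among them mir-509 had reads in testes (210 RPM) and lung (2.51 RPM) alone. Brain took second place for mir-34a in RPM and with TMM, whereas with DESeq2 size factors lung (103) was above brain (51.0) on that scale. The 12 remaining pools differed in which member was raised. Spleen was the next tissue after testes, lung and brain for mir-34b (4 reads, with an interval overlapping the next tissue) and mir-34c. For mir-449a and mir-449c, thymus and spleen followed lung directly. Their order was not resolved, since the ratio of thymus to spleen was 1.51 (0.857 to 2.84) for mir-449a and 0.594 (0.201 to 1.96) for mir-449c. The spleen interval of mir-449a also overlapped the range of the hemispheres. Relative to lung, thymus was 11.4-fold lower (9.48 to 13.9) in mir-34c and 7.53-fold lower (5.93 to 9.70) in mir-449a.

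The makeup of the family changed with the tissue. mir-34c gave 77.9% of the 24285 family reads in testes, 62.2% of 7597 in lung and 88.2 ± 1.63% in brain (SD, n = 3). mir-449a gave 18.2% in testes, 25.2% in lung, 32.4% of 216 reads in thymus and 2.83 ± 0.220% in brain. mir-449c reached 7.33% in lung and 0.733% in testes. mir-34a gave 0.259% in testes, 3.03% in lung, 6.37 ± 1.15% in brain and 28.0% of 182 reads in skin. Brain was the most strongly dominated by mir-34c among testes, lung and brain, the tissues with the most family reads. Kidney had a larger share of mir-34c than brain, at 92.5% of 133 reads. The largest shares of mir-34a were those of skin and pancreas (25.8% of 31 reads).

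**Figure D3:**
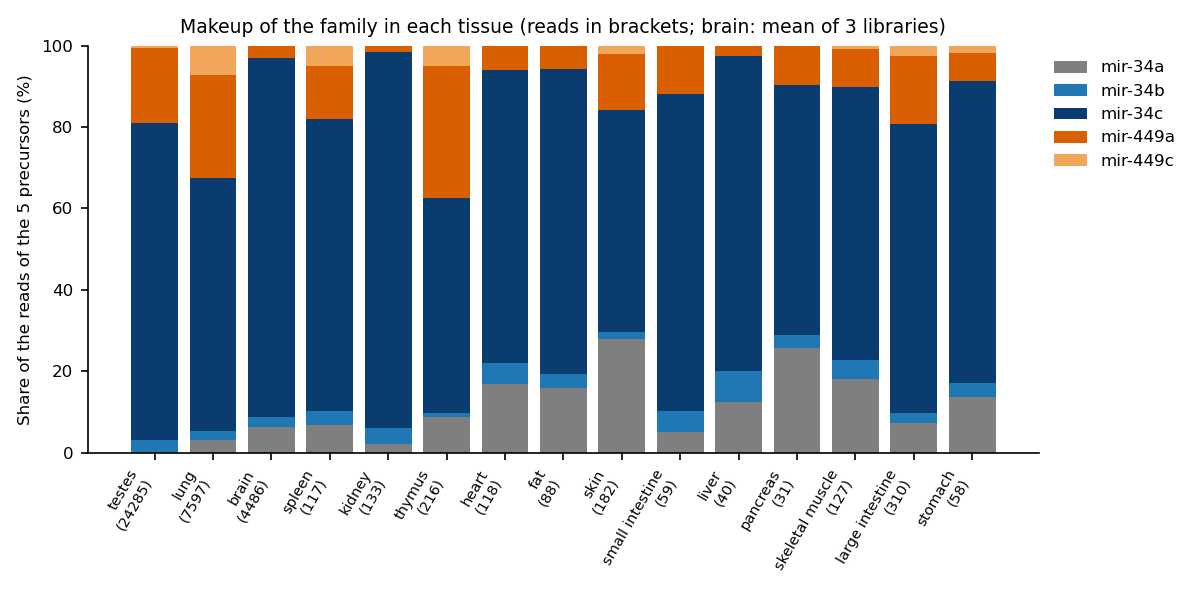
Share of each precursor (%) in the summed reads of the 5 members, for each of the 15 tissues, with the number of family reads in brackets; the brain bar is the mean of 3 hemispheres. mir-34c is the largest block in every bar, mir-449a is widest in thymus (32.4%) and lung (25.2%), and mir-34a is widest in skin (28.0%).

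Ratios between members do not depend on library size or scaling. mir-34b, which lies beside mir-34c, had a ratio to it of similar size in testes, lung and brain. There were 3.72 reads of mir-34b per 100 reads of mir-34c in testes (exact interval 3.45 to 4.01), 3.58 (3.05 to 4.17) in lung and 2.64 ± 0.335 in brain (SD, n = 3). Each hemisphere lay below the testes interval. In pools with few reads the ratio ran from 1.75 in thymus (2 reads of mir-34b) to 7.06 in heart and in skeletal muscle (6 reads each), among libraries with at least 100 family reads. The ratio of mir-449a to mir-34c, which lie on different chromosomes, varied far more. It was 23.4 per 100 (22.6 to 24.2) in testes, 40.5 (38.4 to 42.7) in lung, 61.4 (44.9 to 83.4) in thymus and 3.21 ± 0.306 in brain. The testes, lung and thymus intervals did not overlap one another, and all 3 lay above every hemisphere. The ratio also varied within the mir-449 pair. mir-449c had 29.1 reads per 100 of mir-449a in lung (26.4 to 32.0), 15.7 in thymus (7.50 to 29.9), 8.50 ± 3.87 in brain and 4.02 in testes (3.44 to 4.67). mir-34a had 0.333 reads per 100 of mir-34c in testes (0.256 to 0.426), 4.87 in lung (4.24 to 5.56), 7.24 ± 1.43 in brain and 51.5 in skin (36.0 to 72.9).

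**Figure D4:**
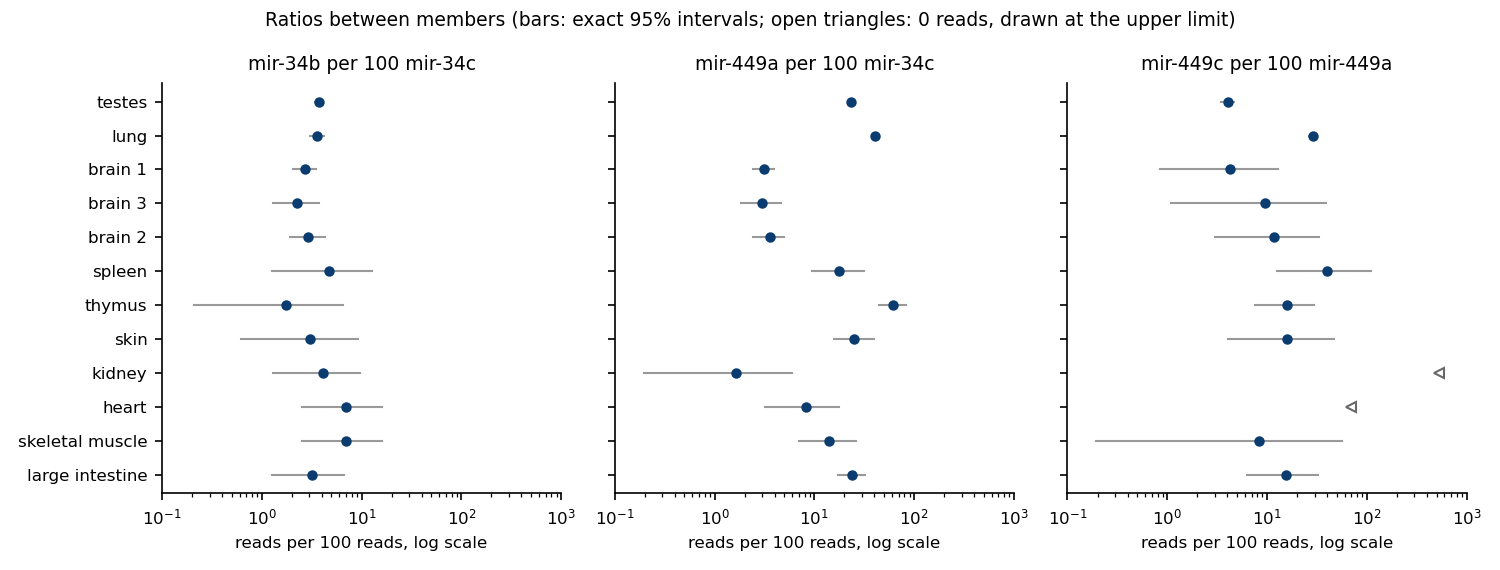
Reads of 1 member per 100 reads of another (log scale) in the 12 libraries with at least 100 family reads; bars are exact 95% intervals of the read counts, and open triangles mark 0 reads, drawn at the upper limit. Points for mir-34b to mir-34c run from 1.75 in thymus (2 reads of mir-34b) to 7.06 in heart and in skeletal muscle (6 reads each). Those for mir-449a to mir-34c run from 61.4 in thymus down to 2.98 to 3.56 in the hemispheres and 1.63 in kidney (2 reads of mir-449a). The ratio of mir-449c to mir-449a is 29.1 in lung and 4.02 in testes.

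Across the 15 tissues, Pearson's r of log2(RPM + 1) was 0.98 for mir-34b with mir-34c and 0.95 for mir-449a with mir-449c, the pairs that lie side by side. Without testes these values were 0.93 and 0.92, and without testes and lung they were 0.88 and 0.84. For mir-34c with mir-449a, r was 0.92 over 15 tissues, 0.75 without testes and 0.56 without both. The points share library depth and, per the study's methods, rats, and the values are given as a description. Outside the family, the precursors most like mir-34a were mir-6318 (0.79), mir-103-1 (0.77) and mir-148b (0.75). Those most like mir-34b were mir-3585 (0.82), mir-1839 (0.80) and mir-547 (0.79), and those most like mir-34c were mir-1839 (0.83), mir-103-2 (0.80) and mir-103-1 (0.80). For mir-449a they were mir-547 (0.77), mir-881 (0.75) and mir-6318 (0.75), and for mir-449c mir-652 (0.77), mir-6318 (0.77) and mir-103-2 (0.71). mir-103-1 and mir-103-2 are copies that yield the same mature miRNA, so reads may be split between them. The closest partner of each of mir-34b, mir-34c, mir-449a and mir-449c was thus a member beside it. These outside names depended on testes and on the measure of correlation. With Spearman's in place of Pearson's, 0 of the 3 were the same for mir-34b and 1 of 3 for mir-34c and for mir-449a, while mir-34a and mir-449c kept most of theirs. Without testes 0 of the 3 were the same for mir-34a, mir-34b, mir-34c and mir-449a, and 2 of 3 for mir-449c.

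Reads of the mature arms came almost wholly from the 5p side for mir-34c and mir-449a. In the 17 tissue libraries, each with at least 10 reads on the arms of mir-34c, miR-34c-5p took 97.5 to 100% of them. In testes the arms of mir-34c had 18339 and 26 reads, or 99.9% on the 5p side. For mir-449a the 5p share was 99.9 to 100% in 9 libraries, and miR-449a-3p had 1 read, in lung. mir-34b used both arms. Its 5p share was 78.6% (75.2 to 81.6%) in testes, 71.7% (63.9 to 78.4%) in lung, and 83.3, 84.0 and 75.0% in the hemispheres, from 54, 25 and 12 reads. These intervals overlapped, and no difference between tissues was detectable at this depth. The mature level of miR-34c-5p in testes was 187550 RPM of the mature total, which was 60.3% of the precursor total in that library, against 83.2% in lung and 84.3 to 85.1% in brain.

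mir-449c had almost no reads in its listed mature arm. Its precursor was counted 775 times over all libraries, 557 of them in lung and 178 in testes, whereas miR-449c-5p was counted once, in lung. Reads on the listed arms made up 0.129% of the precursor reads for mir-449c, 53.9% for mir-34a, for which the 5p arm alone was listed, 87.8% for mir-34b, 90.2% for mir-449a and 96.3% for mir-34c. The level of mir-449c can therefore be read from the precursor list alone. Its hairpin is shown because of this gap, with the arms that RefSeq places on it in capitals, next to that of mir-34c.
mir-449c hairpin: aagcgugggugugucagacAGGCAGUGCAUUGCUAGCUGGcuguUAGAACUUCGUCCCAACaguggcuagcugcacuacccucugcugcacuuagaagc
mir-34c hairpin: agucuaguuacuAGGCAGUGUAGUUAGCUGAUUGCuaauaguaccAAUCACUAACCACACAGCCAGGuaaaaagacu
On the mir-449c hairpin the second arm that RefSeq names, miR-449c-3p, is 17 bases long and starts close behind the 5p arm. It was not among the mature miRNAs counted here, and why the precursor reads of mir-449c were absent from the mature list was not tested.

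The germ cell label of these miRNAs was set beside a list of 16 precursors known from rodent testis and germ cells. All 16 were detected in testes, where they summed to 61309 RPM, led by mir-881 (21533 RPM), mir-743b (19737 RPM) and mir-201 (5960 RPM). In the other tissue libraries the sum was 3.32 to 144 RPM, and in serum it was 0. The list therefore was high in testes alone. In testes there were 52.5 reads of the list per 100 reads of mir-34c. In the hemispheres there were 0.175 to 0.314 and in lung 5.75. Heart had 97.6 (83 against 85 reads) and small intestine 82.6 (38 against 46 reads). In the remaining pools the ratio was 6.98 to 36.8. mir-201 made up 118 of the 144 RPM of the list in heart and 96.6 of the 114 RPM in lung. mir-743b and mir-881 were at 1.67 and 0.836 RPM in lung. Brain and lung thus held mir-34c at 1674 to 1976 RPM with the 2 leading testis precursors at or near 0, although lung held mir-201. No list of ciliated cells was available that did not rest on these miRNAs, and the part of ciliated cells in any level was not tested.

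**Figure D5:**
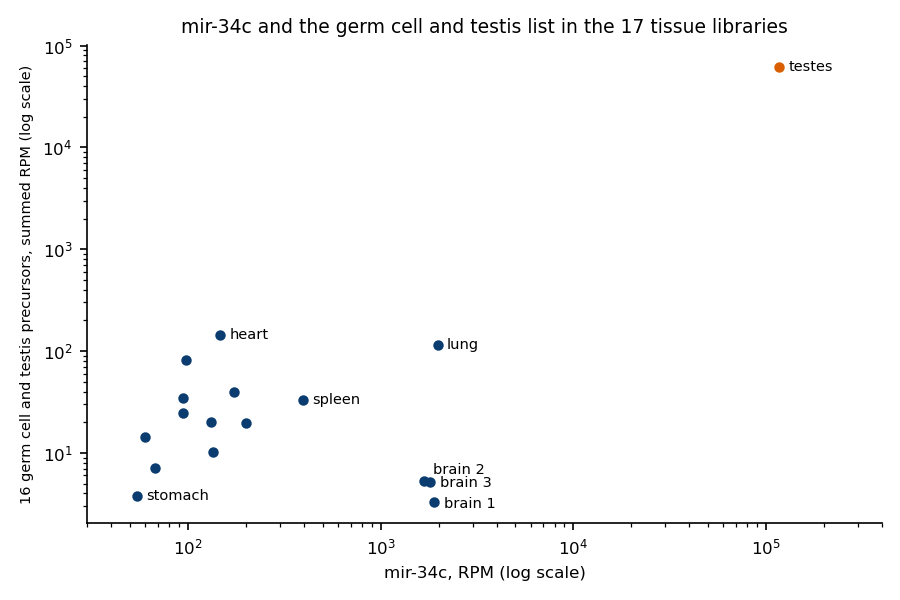
Summed RPM of the 16 germ cell and testis precursors against the RPM of mir-34c in the 17 tissue libraries, both on log scales; the testes pool is orange and the others are blue. Testes stands alone at the upper right, whereas lung (114 RPM of the list) and the 3 hemispheres (3.32 to 5.26 RPM) hold mir-34c at 1674 to 1976 RPM with low values of the list.

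The other tissues mostly carried the markers of their labels. Neuronal mir-124 was highest in the hemispheres (4002 to 5425 RPM), miRNAs of striated muscle in skeletal muscle and those of leukocytes in thymus and spleen. The pancreas library went against its label. It held hepatocyte mir-122 at 14862 RPM, beside 14726 RPM in liver, its pancreatic miRNAs were not the highest, and its profile was most like that of liver (r = 0.97 over 295 precursors). Without this library the testes excess over the median was 9.04 for mir-34b, 9.68 for mir-34c and 8.68 for mir-449c. Precursor reads numbered 388274 to 1204551 in the hemispheres, 162080 (testes) to 3685759 (large intestine) in the pools and 7556 to 10862 in serum.

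Serum held almost no reads of the family. mir-34c had 0, 0 and 4 reads in the 3 serum libraries, all 4 on miR-34c-5p, and the other members had 0 in each. The pooled level of mir-34c in serum was 152 RPM (59.0 to 390), and the hemispheres, at 1674 to 1903 RPM, lay above every serum library, the highest of which was at 504 RPM. At the mean brain level 47.3 serum reads would have been counted. By edgeR's quasi-likelihood test with Benjamini-Hochberg adjustment, mir-34c was higher in brain than in serum by 3.44 (log2, SE 0.60, adjusted p = 0.000294), and miR-34c-5p by 3.57 (SE 0.64, adjusted p = 7.34e-06). Both entered the test through brain alone, since no serum library reached 10 counts, so these p-values are given as a description. Across 11 alternatives, by edgeR or DESeq2, the adjusted p of mir-34c ran from 1.957e-15 to 0.00628. Without serum replicate 3, the only one with reads of mir-34c, serum had 0 of 18418 reads. The brain mean was then 11.03 times the level of 3 reads over the group. The background was large, since 63.4% of 235 precursors and 67.0% of 212 mature miRNAs were called in either direction, and 44.7% and 52.8% were called higher in brain.

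The other members could hardly be compared with serum at this depth. A count of 0 over the 26348 serum precursor reads was set against 114 RPM, the level of 3 reads over the group. The upper end of its Wilson interval was 146 RPM. The brain mean exceeded 114 RPM for mir-34a only, at 1.14 times that level, and replicate 3 of brain (103 RPM) lay below it. For none of these members did the brain mean reach 146 RPM. At the brain level serum would have given 3.41 reads of mir-34a, 1.52 of mir-449a, 1.24 of mir-34b and 0.129 of mir-449c. mir-34a passed edgeR's test with an adjusted p of 0.0394, but this call did not last. With brain and serum libraries of the same replicate number as a block, the adjusted p of mir-34a by edgeR was 0.0982, and 3 of 11 alternatives, with adjusted p from 0.0116 to 0.111 by edgeR or DESeq2, kept it under 0.05. Leaving out brain replicate 1, brain replicate 2 or any serum replicate ended the call, with adjusted p of 0.0627 to 0.111 by edgeR. mir-34b and mir-449a had adjusted p-values of 0.200 and 0.161 by edgeR, mir-449c was too low to be tested, and all of those tested passed the count filter through brain alone.

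Brain was also set against all 14 pools taken as a single group, whose error is the variation from tissue to tissue. Of all 295 precursors tested by edgeR with Benjamini-Hochberg adjustment 42.7% were called, 71 higher and 55 lower in brain, and 0 of the 5 members were called. With library totals in place of TMM the split was 123 higher and 24 lower. For mir-34c the log2 difference of brain from the pools was -3.09 (SE 2.70, edgeR adjusted p = 0.330), and for mir-34a it was 0.37 (SE 0.90, edgeR adjusted p = 0.737). Unadjusted p-values were all above 0.05, the lowest being 0.104 for mir-449c, and DESeq2 also called 0 members. The sign depended on the pools and the tool. Without the testes pool the difference was 1.10 for mir-34b and 1.82 for mir-34c, and with DESeq2 and every pool kept it was 0.31 and 1.05. With the testes and lung pools both left out, chosen after seeing the data, it was 2.77 for mir-34c, 1.91 for mir-34b and 1.54 for mir-34a. The pools left out were those above brain for mir-34b and mir-34c, so these values describe the remaining 12 pools and no test is given. For mir-449a and mir-449c it was 0.34 and -0.61. Among 290 mature miRNAs 44.1% were called in brain against the pools by edgeR, and none of the 4 tested arms of the family was. The 3 hemispheres are 1 tissue, so these p-values can be too small.

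mir-34a is one of several miRNAs whose transcription or processing p53 is known to raise. Outside the family, 8 precursors of that kind were listed (mir-16, mir-107, mir-143, mir-145, mir-192, both copies of mir-194, and mir-200c), and all 5 members were left out of the list. Of these 8, 6 also stand in lists of tissue markers, with mir-143 and mir-145 as the whole smooth muscle list, mir-192 and both copies of mir-194 in that of gut, liver and kidney epithelium, and mir-200c in that of epithelium. In brain against serum 7 of the 8 were tested by edgeR, which called 44.7% of all 235 precursors higher and 18.7% lower in brain. mir-107, which entered the test through brain alone, had an edgeR adjusted p of 0.00170, given as a description. It was at 499 ± 34.7 RPM in brain against 0 serum reads, or 4.39 times the level of 3 reads over the serum group. By log2 difference, mir-16 (-1.92, adjusted p = 1.10e-05), mir-192 (-2.56, adjusted p = 5.29e-05) and mir-145 (-3.31, adjusted p = 0.000204) were lower in brain by edgeR. mir-145 too entered the test through brain alone, at 529, 368 and 504 RPM in the serum libraries, so its p-value is given as a description. The median of the list was -0.79, against 2.15 over all 235 precursors. In brain against the pools 0 of 8 were higher and 3 were lower by edgeR, beside 24.1% higher and 18.6% lower of all 295 precursors. The 3 were mir-143 (-4.38, adjusted p = 0.0104), mir-145 (-4.75, adjusted p = 0.0153) and mir-16 (-1.74, adjusted p = 0.0156). The median of the list was -4.56, against 0.17 over all 295, and the part of smooth muscle and epithelium in these values was not tested.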

How the data were processed

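Per the labels and the study's methods, small RNA libraries (TruSeq) were sequenced on a MiSeq, bases under phred 20 were trimmed, and reads were aligned with Bowtie to Rn5 and quantified with Partek software against miRBase and RefSeq. Versions are not given in the sources used here. The values the authors deposited are estimated counts, not normalized, for 1409 features per library in 3 stacked lists, and the precursor list was main. Counts were divided by the total of their own list (RPM). Wilson intervals at 95%, exact intervals of ratios and limits of 3 reads cover counting error only, since reads carry no molecular identifiers.

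For tests, counts were rounded, and precursors or mature miRNAs that reached 10 counts in 3 or more libraries of the comparison were kept. These entered edgeR 4.0.16 (R 4.3.3, TMM, quasi-likelihood test, Benjamini-Hochberg threshold 0.05), which was also run on simulated data. DESeq2 1.42.0 was an alternative. Fits that left out a library kept the features of the full fit, a choice made after their first counts were seen. The members and lists were chosen with earlier results of these data known. Named precursors were all members, the 3 most like each by Pearson's r, the 3 highest of the germ cell list in testes, and p53 precursors that passed a test, and exceptions are stated. Brain and serum share replicate numbers and, per the study's methods, rats, but the labels do not tie a number to a rat. Levels used Python 3.11.15, pandas 2.3.3, NumPy 2.4.6 and SciPy 1.17.1, and figures used Matplotlib 3.10.9. Promoters were not used here, and the study's other experiments were not analysed here.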

Additional observations from a re-analysis of the deposited data

How the results depend on the processing

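Of 158 recomputed counts of calls and testes levels, 111 stayed within their limit and 47 moved, with no change of sign among them. Requiring 10 counts in every library, which leaves fewer miRNAs to test, gave 26 higher and 20 lower precursors and 14 and 12 mature miRNAs in brain against serum, and 11 and 21 precursors and 4 and 25 mature miRNAs in brain against the pools. In the latter comparison library totals gave 123 higher and 24 lower precursors and 28 lower mature miRNAs, DESeq2 gave 119 lower precursors, and no count filter gave 94 higher mature miRNAs. Without 1 hemisphere it gave 46 to 63 higher and 14 to 16 lower precursors and 48 to 54 and 21 to 23 mature miRNAs.

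The testes excess over the tissue median was 3.25 for mir-34a with DESeq2 size factors. For mir-34b it was 9.38 with 0.1 RPM added, 8.05 with 10 RPM added, 8.48 with TMM, 8.04 with size factors and 9.48 from the mature arms. For mir-34c it was 9.65 with 10 RPM, 9.24 with TMM, 8.99 with size factors, 9.69 in the RefSeq list, 10.01 from the arms and 9.80 over the total of tested precursors. For mir-449a it was 10.83 with 0.1 RPM, 10.10 with 10 RPM, 9.77 with TMM, 9.82 with size factors, 10.89 in the RefSeq list, 11.31 from the arms and 10.80 over tested precursors. For mir-449c it was 9.66 with 0.1 RPM, 6.62 with 10 RPM, 8.17 with TMM, 8.36 with size factors and 0 from its arm, which had no testes reads. Without the pancreas pool the values were 9.04 for mir-34b, 9.68 for mir-34c and 8.68 for mir-449c. Testes stayed first for all 5 members under TMM, size factors, the RefSeq list and the tested total. In brain, mir-449a was at -0.15 with size factors. The cause of these moves was not tested.

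In brain against the pools the log2 difference changed sign under some settings. With DESeq2 it was -0.23 for mir-34a, 0.31 for mir-34b, 1.05 for mir-34c, -0.18 for miR-34a-5p, 0.64 for miR-34b-5p and 1.28 for miR-34c-5p, and with size factors in edgeR it was -0.24 for mir-34a and -0.19 for miR-34a-5p. Without testes it was 1.10 for mir-34b, 1.82 for mir-34c, 0.79 for miR-34b-5p and 1.40 for miR-34c-5p, and without lung and testes 1.91, 2.77, 1.54 and 2.34, with 0.34 for mir-449a. The cause was not tested beyond the pools left out.

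Brain and serum libraries of the same replicate number did not deviate together (r = 0.0953, -0.145 and -0.0352 over 73 precursors). With the replicate block the difference of mir-34c was 3.49 (edgeR adjusted p = 7.82e-05) and that of mir-34a lost its call (adjusted p = 0.0982). Depth limits serum most, with 276 to 397 RPM for 3 reads in a library.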
